A study of Homo sapiens with 7 samples.

Results

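The Myc binding sites of human chromosome 7 are described here for HT29, an established human colon adenocarcinoma line. The 2799 peaks were chosen by their chromosome from the authors' peak calls, out of 47016 peaks on the nuclear chromosomes, so the peak calling itself selected every member. Binding was mapped by CUT&RUN, in which cells are held on concanavalin A beads and permeabilised with digitonin, and an antibody directs a protein A/G-tethered nuclease to cut the DNA beside its target. The titles give 3 Myc libraries, 3 libraries with IgG as the control and 1 input library. Before each, the cells had spent 6 h in serum-free medium with oleic acid, a fatty acid, so binding without it was not analysed here. The labels name the Myc antibody for the IgG libraries too. The deposited list gives 1 value per peak and no value per library, so every interval below covers counting error only and no test over samples could be made.

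Myc is a basic helix-loop-helix leucine zipper protein that binds DNA with its partner MAX, preferably at the E-box. It is found at many active promoters and at enhancers, and it is known for its role in ribosome production, nucleotide synthesis, cell cycle entry and metabolism. In colon cancer its level is raised downstream of Wnt signalling. Chromosome 7 carries the HOXA homeobox cluster, the kinase receptor genes EGFR and MET, the kinase gene BRAF, the chromatin gene EZH2 and the Williams-Beuren region with BAZ1B and GTF2I.

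The sequences below show the promoters under the 5 strongest chromosome 7 peaks whose summit, the base of highest signal, lay inside a listed promoter window, and that of MET. Each runs 5′ to 3′ from 250 bases before to 50 bases after a RefSeq start on GRCh38.p14, and capitals mark the E-box CACGTG, which reads the same on both strands.
AIMP2: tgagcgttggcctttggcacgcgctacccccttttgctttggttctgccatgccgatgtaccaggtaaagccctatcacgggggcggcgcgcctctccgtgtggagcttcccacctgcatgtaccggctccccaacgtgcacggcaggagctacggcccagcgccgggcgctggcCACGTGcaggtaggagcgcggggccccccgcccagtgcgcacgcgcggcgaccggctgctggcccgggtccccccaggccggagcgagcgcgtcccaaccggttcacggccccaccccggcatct
SLC12A9: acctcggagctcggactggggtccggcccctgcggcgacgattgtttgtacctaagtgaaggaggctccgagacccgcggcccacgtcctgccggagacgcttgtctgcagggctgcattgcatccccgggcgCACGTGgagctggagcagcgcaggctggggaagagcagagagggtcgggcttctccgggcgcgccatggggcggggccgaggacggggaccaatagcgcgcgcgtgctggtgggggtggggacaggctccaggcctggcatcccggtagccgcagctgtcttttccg
EIF3B: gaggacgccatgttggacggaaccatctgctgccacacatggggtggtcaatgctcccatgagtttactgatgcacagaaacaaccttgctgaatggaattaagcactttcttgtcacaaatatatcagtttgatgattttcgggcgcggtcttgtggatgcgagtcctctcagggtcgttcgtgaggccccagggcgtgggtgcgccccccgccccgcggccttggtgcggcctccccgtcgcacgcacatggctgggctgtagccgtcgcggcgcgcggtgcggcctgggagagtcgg
FAM133B: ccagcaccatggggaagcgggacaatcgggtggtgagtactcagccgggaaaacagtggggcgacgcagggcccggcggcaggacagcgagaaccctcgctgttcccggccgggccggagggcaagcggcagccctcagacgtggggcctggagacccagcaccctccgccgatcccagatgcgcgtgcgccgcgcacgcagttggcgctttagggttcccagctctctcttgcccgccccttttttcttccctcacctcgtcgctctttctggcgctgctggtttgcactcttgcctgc
NT5C3A: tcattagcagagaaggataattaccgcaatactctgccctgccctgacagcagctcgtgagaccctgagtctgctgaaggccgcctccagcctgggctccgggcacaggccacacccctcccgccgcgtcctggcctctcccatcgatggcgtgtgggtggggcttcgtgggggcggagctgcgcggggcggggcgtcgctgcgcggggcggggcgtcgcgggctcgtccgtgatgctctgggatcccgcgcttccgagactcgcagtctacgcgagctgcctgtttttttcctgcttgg
MET: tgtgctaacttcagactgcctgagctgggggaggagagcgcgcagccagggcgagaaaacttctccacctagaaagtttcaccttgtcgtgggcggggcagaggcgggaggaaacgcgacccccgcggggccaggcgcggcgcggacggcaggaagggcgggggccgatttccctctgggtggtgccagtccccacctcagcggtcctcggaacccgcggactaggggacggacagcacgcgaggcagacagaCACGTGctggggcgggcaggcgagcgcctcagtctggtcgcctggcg
The AIMP2 window is chr7:6009315-6009614 on the plus strand, at a start 293 bases inside the annotated gene. The summit lay 177 bases before that start and 116 bases inside the gene, and 1 E-box was at bases 176 to 181 of the sequence. The SLC12A9 window is chr7:100852463-100852762 on the plus strand, at a start well inside the annotated gene, with the E-box at bases 134 to 139. The EIF3B window is chr7:2354577-2354876 on the plus strand, at a start 741 bases inside the gene. The FAM133B window is chr7:92590000-92590299 and the NT5C3A window chr7:33062727-33063026, both on the minus strand, the first at a start 341 bases inside the gene and the second at the gene's outer start. These 3 held no CACGTG within the 300 bases. The MET window is chr7:116671946-116672245 on the plus strand, with the summit 100 bases before the start and the E-box at bases 254 to 259, just inside the transcribed part. GC content ran from 61% in the EIF3B window to 71.7% in the AIMP2 window.

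The strongest peak of the chromosome lay at AIMP2 and PMS2, head-to-head genes for a scaffold of the aminoacyl-tRNA synthetase complex and for a mismatch repair protein. It spanned chr7:6007917-6010152 on hg38. Its fold enrichment, the authors' ratio of Myc to local control signal at the summit with a constant added to each, was 33.1. There, 201 Myc fragments overlapped (the pileup) where the control level was 5.09 (95% counting interval of the fold 28.8 to 38). REPIN1, a zinc finger protein of replication origins, followed at chr7:150367117-150370520 with a fold of 30.6 (26.8 to 34.8). ABCB8, a mitochondrial transporter, had a fold of 29.9 (26.1 to 34.2) at chr7:151027073-151029249. The intervals of these 3 peaks overlapped, so their order is not resolved. Next among the peaks at coding gene ends came FIS1, which acts in mitochondrial fission, with a fold of 24.6, and CRCP, a subunit of RNA polymerase III, with 24.6. EIF3B, a core subunit of the translation initiation factor eIF3, shared a peak of 23.6 with SNX8, a sorting nexin. POLD2, an accessory subunit of DNA polymerase delta, had a fold of 23.3, TMEM184A 23.1, RABGEF1, an exchange factor for the endosomal GTPase Rab5, 22.2, and FAM133B 21.8.

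Of the 15 strongest peaks, 5 lay away from the outer ends of the coding genes. A peak of 27.2-fold at chr7:157289121-157290293 lay inside LOC124901803. The SLC12A9 start shown above, also the end of the antisense transcript SLC12A9-AS1, had a fold of 25.7. The other 3 sat at ends of long noncoding RNAs: ELFN1-AS1 with 24.1, the readthrough transcript STAG3L5P-PVRIG2P-PILRB with 23.3 and LOC105375456 with 21.4. SNHG15, the host gene of a small nucleolar RNA, followed with 18.6. A summit lay within 1 kb of an end in 218 of 922 lncRNA genes (23.6%), against 58.5% of the chromosome's coding genes. For 121 of these lncRNA genes it was over 1 kb from any coding gene end. Overlapping antisense genes cannot be told apart by a peak's position.

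Chromosome 7 held 17.6 peaks per Mb (95% Poisson interval 16.9 to 18.2), against 15.1 per Mb (15 to 15.2) on the other nuclear chromosomes. It ranked 9 of 23 in peaks per Mb and 11 in coding genes per Mb among chromosomes 1 to 22 and X. Per protein-coding gene it had 2.98 peaks, against 2.31 elsewhere, which placed it at rank 5. Its intervals covered 1.68% of the chromosome, against 1.46% elsewhere. Chromosome 6, the next longer autosome, had 13.8 peaks per Mb and 2.25 per gene, and chromosome 8, the next shorter, had 24.5 per Mb and 4.97 per gene. Poisson intervals take peaks as independent, which neighbouring peaks are not, so they are narrower than the true uncertainty.

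The share of genes with a peak differed less from the other chromosomes than the density of peaks did. Of 938 protein-coding genes of chromosome 7, 549 (58.5%; Wilson 95% interval 55.3 to 61.6) had a peak, counted as a summit at most 1 kb from an annotated end, against 56.3% on the other chromosomes and a background of 56.4% over all 20037 genes. The share of summits at such ends was 20.3% (567 peaks; 18.8 to 21.8), below the 23.9% (23.5 to 24.4) elsewhere and the background of 23.7% over all peaks. A larger part of the chromosome's peaks lay outside genes but within 50 kb of one, 25.9% against 22.5%, while 41.9% against 40.9% lay inside a gene away from its ends. The median fold was 3.92 on chromosome 7 and 4.13 on the others, the median width 659 bp against 690 bp, and the median pileup 28 against 29 fragments.

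The control level differed as well. It had a median of 6.36 fragments at the summits of chromosome 7, against 5.89 elsewhere, and 7.07% of the peaks sat at the lowest control level of the list, 5.09, against 24.8% elsewhere. Across the 22 autosomes, which share 1 list and 1 set of libraries, peaks per gene and the median control level had a Spearman correlation of 0.864 and a Pearson correlation of 0.915. Without chromosome 8 the Spearman value was 0.844 over 21 autosomes. Peaks per Mb followed the median control level less closely, with a Spearman correlation of 0.418 and a Pearson correlation of 0.28. Without chromosome 8 that Spearman value was 0.365. Chromosomes 8, 13, 20 and 15, with medians of 9.43, 7.2, 6.5 and 6.43, stood above chromosome 7 in control level and in peaks per gene. The share of genes with a peak did not follow the control level, with a Spearman value of 0.0244. Copy number was not measured here, and its part in these values was not tested.

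**Figure D1:**
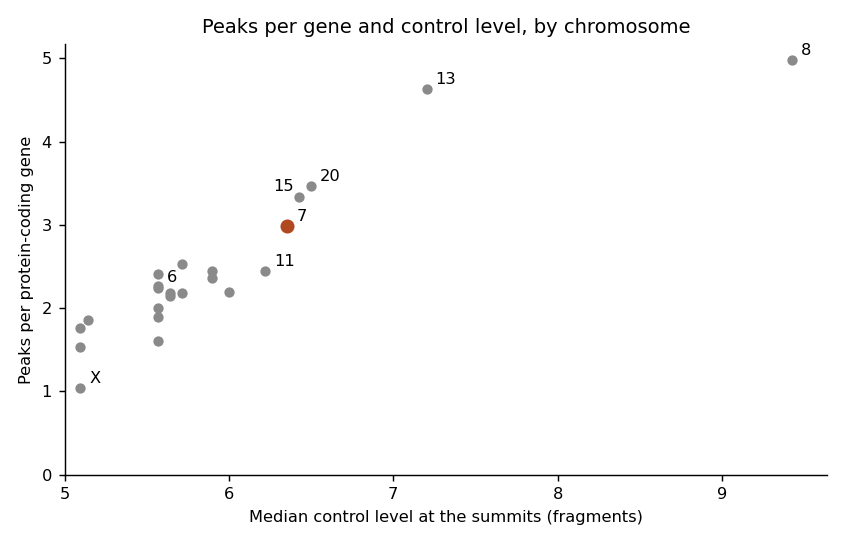
Peaks per protein-coding gene (vertical axis) against the median control level at the summits in fragments (horizontal axis, which starts at 5), with 1 point per chromosome. Chromosome 7, in orange at 6.36 and 2.98, lies below chromosomes 15, 20, 13 and 8 and above chromosome 11.

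The arms, split at 60 Mb, were close to each other. The long arm held 1784 peaks, 18 per Mb (17.2 to 18.8), and the short arm 1015 peaks, 16.9 per Mb (15.9 to 18). The share of summits at gene ends was 21.2% (19.4 to 23.1) on the long arm and 18.6% (16.4 to 21.1) on the short arm. Genes with a peak made up 58.6% of 636 on the long arm and 58.3% of 302 on the short arm, and at those genes the strongest peak had a median fold of 8.24 on the long arm and 8.3 on the short arm. All these intervals overlapped. The short arm had more peaks per gene, with 2.81 on the long arm against 3.36 on the short arm, since the long arm has 6.41 coding genes per Mb and the short arm 5.03. Peaks over 50 kb outside any gene made up 10.9% of the long arm's and 13.7% of the short arm's. The median width was 643 bp on the long arm and 688 bp on the short arm, and the median control level 6.36 on the long arm and 6.22 on the short arm. Peaks over 2 kb wide were 9.03% of the long arm's and 9.75% of the short arm's. Both arms had more peaks per Mb and a smaller share at gene ends than the other chromosomes.

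**Figure D2:**
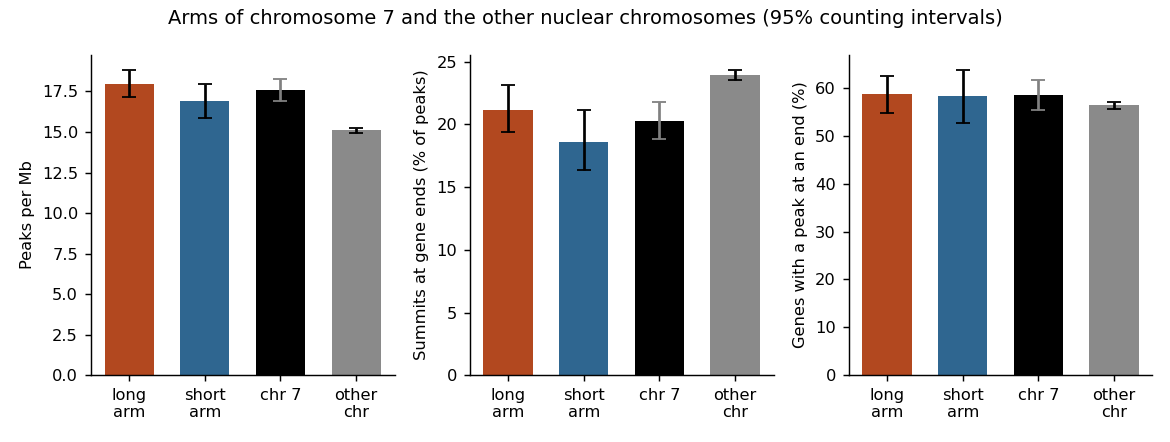
Peaks per Mb, the percentage of summits within 1 kb of a coding gene end, and the percentage of coding genes with such a summit, as bars with 95% counting intervals (Poisson for density, Wilson for shares). The intervals of the long and the short arm overlap in all 3 panels, and chromosome 7 stands above the other chromosomes in density and below them in the share at gene ends.

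Peaks were unevenly spread along the chromosome. The 160 bins of 1 Mb held a median of 13 peaks, with quartiles of 3 and 25, and 18 bins were empty, 13 on the long arm and 5 on the short arm. At the other end, 19 bins with 40 or more peaks held 1078 peaks, 38.5% of the total. The number of peaks per bin had a Spearman correlation of 0.738 with the number of coding genes, each counted in the bin of its lower end, a description over neighbouring bins of 1 list. In the 90 bins with at least 10 peaks, the median control level per bin ran from 5.43 to 8.51 fragments, with quartiles of 6.08 and 6.57. Neighbouring summits were a median of 14.9 kb apart, and 27.9% of them lay within 5 kb of the next.

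**Figure D3:**
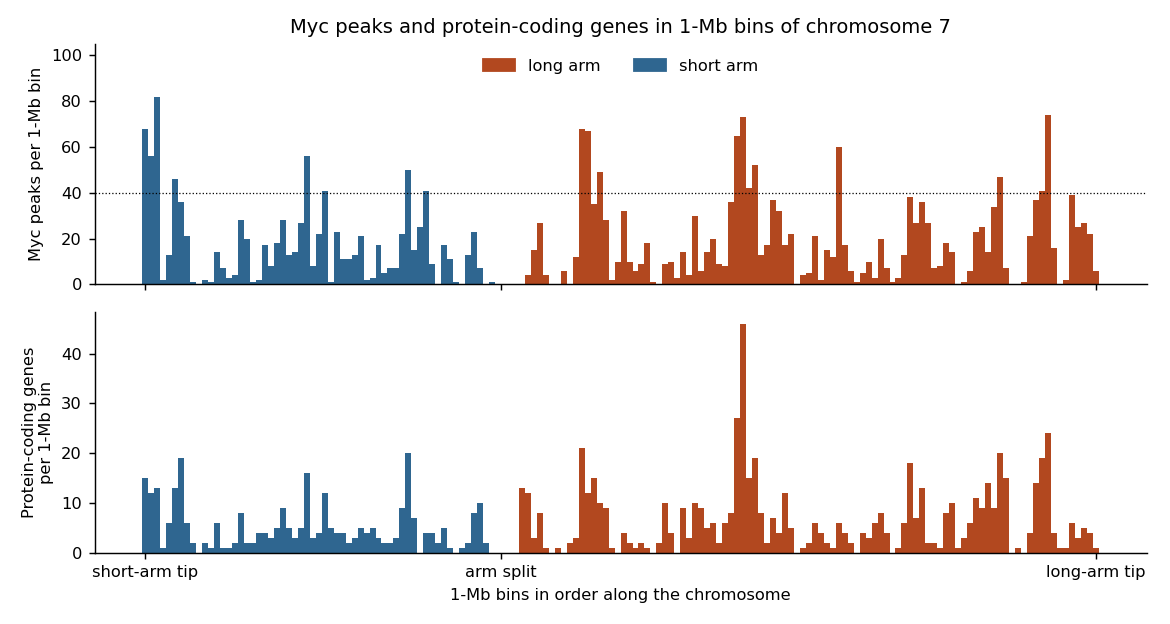
Myc peaks (top) and protein-coding genes (bottom) in each 1-Mb bin, in order from the short-arm tip to the long-arm tip; orange bins are on the long arm, blue bins on the short arm, and the dotted line marks 40 peaks. The tallest bin, with 82 peaks, lies near the short-arm tip, while the bin with most genes, 46, holds 73 peaks.

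The densest bin, from 2 to 3 Mb, held 82 peaks (65.2 to 102) with 13 coding genes, and only 12.2% of its summits were at gene ends. Its gene ends were led by EIF3B with SNX8, then BRAT1, a partner of the DNA damage protein BRCA1, with a fold of 11.9. MRM2, a mitochondrial ribosomal RNA methyltransferase, and NUDT1, which clears oxidised nucleotides, shared a peak of 8.75. TTYH3 had 5.92, CHST12, a chondroitin sulfotransferase, 5.69 and GNA12, a G protein subunit, 5.58 at its start. Inside GNA12 lay 9 more summits, the highest with 15.6. The first 3 Mb together held 206 peaks, 7.36% of the chromosome's, at 68.7 per Mb, whereas the next bin, from 3 to 4 Mb, had 2 peaks and 1 coding gene. At the tip itself, the bin from 0 to 1 Mb had 68 peaks, with COX19, a copper protein of cytochrome oxidase assembly, at 14.3 and DNAAF5, a dynein assembly factor, at 12.2. GET4, which acts in the insertion of tail-anchored proteins, had 11.5, while LOC124901807 and ADAP1 had 5.09 each and PDGFA, a growth factor, 4.02. The 5.09 of ADAP1 lay at its 3′ end. ADAP1 held 13 summits inside, and the highest, of 15.8, lay 231 bases before a listed start of the gene.

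On the long arm, the bin from 151 to 152 Mb was densest, with 74 peaks and 24 coding genes. ABCB8 led it, followed by a summit of 16.4, 705 bp from the locus LOC128092247 and 41 bp into a listed start of SLC4A2, an anion exchanger, then AGAP3 with 12.3 and RHEB, the GTPase that activates mTORC1, with 11.7. FASTK, a mitochondrial RNA-binding kinase, and TMUB1 shared a peak of 10.5, and ABCF2 had 9.36. The bin from 100 to 101 Mb had 73 peaks beside the most coding genes of any bin, 46, and 45.2% of its summits were at gene ends. AP4M1, an adaptor subunit, shared a peak of 18.3 with MCM7, a subunit of the replicative helicase. POP7, of ribonuclease P, had 16.7, MOSPD3 15.3, MEPCE, the capping enzyme of 7SK RNA, 14.5 and FBXO24 10.3. A summit of 15.8 lay near ends of ACHE, SRRT and UFSP1, on the 3′ side of ACHE, the acetylcholinesterase gene, and of SRRT, an RNA-processing factor. The run of bins from 99 to 103 Mb around it held 232 peaks, 8.29% of the total, with 107 coding genes.

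The Williams-Beuren region gave a bin of 68 peaks from 73 to 74 Mb and one of 67 from 74 to 75 Mb. BAZ1B, a chromatin remodeller subunit, had a fold of 17.3, CLDN3, a tight junction claudin of gut epithelium, 13.9, and ABHD11, a mitochondrial hydrolase, 12.7. BUD23, an 18S ribosomal RNA methyltransferase, and DNAJC30 shared a peak of 12.3. TBL2 had 11.4 and BCL7B, of the SWI/SNF complexes, 10.3. GTF2I, a general transcription factor of this region, had 17.3. It has near-identical copies nearby, so its count is uncertain, as are those of POLR2J, RASA4 and the SPDYE genes, for which reads can be shared between copies. The highest pileup of the chromosome, 452 fragments over a control level of 23.6 (fold 18.4), lay inside RASA4, where both values may hold reads of its copy RASA4B.

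The bin from 116 to 117 Mb was dense with few genes: 60 peaks, 6 coding genes and 10% of summits at gene ends, with 42 of the 60 over 10 kb from any coding end. It centres on MET, the receptor of hepatocyte growth factor. The MET start had a fold of 16.5, and 15 further summits lay within the gene, of which the strongest, 52 kb into it, had 16.2 (13.5 to 19.3) with no gene end nearby. The other 14 in MET ran from 2.23 to 7.07, with a median of 3.62. The start of CAPZA2, an actin-capping subunit, had 15.4. CAV2, which encodes a caveolin, had 6.79 by its start, whereas the nearest summit to CAV1 lay 1043 bp from an end and had 5.32.

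Among coding genes, 603 had a summit inside, 81 had at least 5 and 19 at least 10. TNS3, a focal adhesion tensin, had the most, 25 over 307 kb, with folds from 2.31 to 12.4, and none within 1 kb of its outer ends, though 2 of them lay within 1 kb of a listed start. PRKAG2, a regulatory subunit of the energy sensor AMPK, had 18 summits inside with a highest fold of 10.9. CDK6, a G1 cyclin-dependent kinase, had 16 inside, the strongest with 8.92, while the summit by its start had 2.81. ATXN7L1, CUX1 and MAD1L1 had 15 each. Within CUX1, a homeodomain regulator, the highest fold was 13.5. Beside TNS3, the bin from 46 to 47 Mb held 25 peaks with no coding gene beginning in it, with a highest fold of 9.13.

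The weakest and strongest peaks differed in where they lay. When the peaks were ranked by the authors' fold and cut into 10 equal parts, 58.6% (52.7 to 64.2) of the strongest part had the summit at a gene end, against 9.29% (6.42 to 13.3) of the weakest and 3.57% of the part above it. Median width was 1957 bp in the strongest and 334 bp in the weakest part. Median pileup was 99 against 18, which follows in part from the ranking, since the fold is computed from the pileup. By position, the median fold was 7.2 at gene ends, 3.56 inside genes, 3.68 outside within 50 kb and 3.64 farther out. The 107 genes whose strongest end peak was also at an end of another coding gene had a median fold of 10.3, against 7.71 at the others. A shared peak enters this median for each of its genes. At the edge of the 1 kb window, a summit 985 bp from an end of HILPDA, with a fold of 4.89, was counted, while one 1001 bp from an end of WASL, with 5.09, was not. Both genes had another summit nearer to an end, at 271 bp in HILPDA and 382 bp in WASL.

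Strand was known for 799 of the 938 coding genes, through 1118 listed starts. Of all chromosome 7 summits, 484 (17.3%; 15.9 to 18.7) lay within 1 kb of such a start, and 52 (1.86%; 1.42 to 2.43) lay only at the other end of a gene. The median fold was 7.71 at starts and 3.82 at 3′ ends alone, close to the 3.64 of summits at neither. Summits at starts fell into separate zones. The fullest 100-bp interval, 100 to 200 bp into the gene, held 136 summits, the interval 300 to 200 bp before the start held 60, and the 100 bp just before the start held 10. On the long arm 18.5% and on the short arm 15.2% of summits were at a start.

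**Figure D4:**
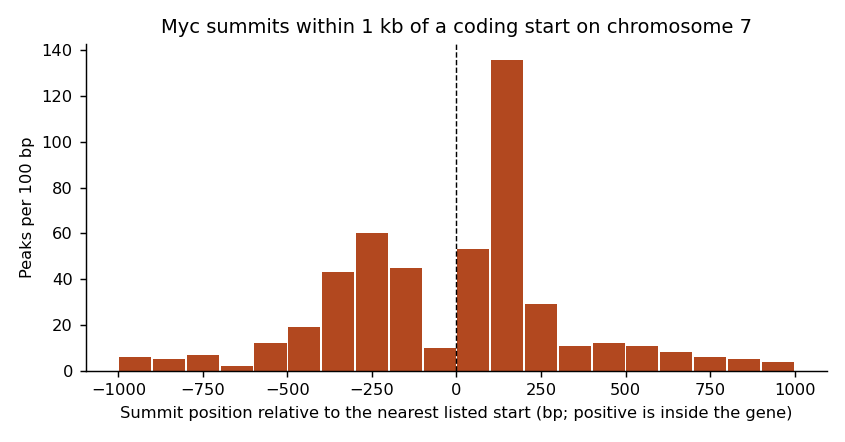
Number of chromosome 7 summits in each 100-bp interval around the nearest listed coding start, for the 484 within 1 kb; positive values lie inside the gene. A peak of 136 summits at 100 to 200 bp inside and a broader group before the start, reaching 60 per interval, flank a low of 10.

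In the promoter windows, CACGTG was found in 10.9% (8.63 to 13.7) of the 587 chromosome 7 starts with a summit within 1 kb, in 5.27% (3.67 to 7.52) of the 531 without one, and in 8.34% of all 22199 coding starts of the table. Among the 220 starts with a fold of at least 10 it was found in 13.6% (9.72 to 18.8). The related site CACGCG was in 18.9% of starts with a summit, 9.6% of starts without and 14.2% of all starts. CATGTG had 8.52% with a summit, 10.2% without and 8.93% of all. Sites of other factors were also more or less frequent by peak status. GGGCGG, the SP site, was in 72.2% with a summit, 32.6% without and 56.3% of all. CCGGAAG, the ETS site, was in 21.1% with a summit, 3.77% without and 12.8% of all, and TGCGCA, the NRF1 core, in 13.6% with a summit, 4.71% without and 9.88% of all. CCAAT, bound by NF-Y, differed less, with 36.1% with a summit, 31.8% without and 34.7% of all. In the 220 starts with a fold of at least 10, CCAAT was found in 44.55% (38.13 to 51.15). TATAAA went the other way, with 5.96% with a summit, 12.2% without and 9.47% of all. Among the same 220 starts, GGGCGG was in 78.6%, CCGGAAG in 24.55%, CACGCG in 21.8% and TGCGCA in 15.9%. CATGTG was in 9.09% of them and TATAAA in 2.73%. Median GC was 66% with a summit and 56.7% without, and its part in these shares was not tested. Both strands were searched, the windows of neighbouring starts can overlap, and CACGTG and CACGCG can overlap other listed words. Of the 124 windows that held a summit, 13 also held CACGTG. The nearest E-box was a median of 134 bp from the summit in these 13, and within 50 bp in 1 of them. GGGCGG, held by 83 of the 124, was a median of 100 bp away, and within 50 bp in 25.3%.

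The HOXA cluster had the widest peak of the whole list, 27792 bp at chr7:27165127-27192918, with a fold of only 8.38 at its summit by HOXA11. This interval spans HOXA10, HOXA11, their antisense transcripts and the gene of miR-196b, and touches HOXA9. HOXA genes encode homeobox factors of body axis patterning. Of 12 genes in the HOXA list, which includes EVX1, 10 had a peak at an end (83.3%; 55.2 to 95.3, an interval that holds the 56.4% over all coding genes), with a median fold of 4.08, below the chromosome's 8.24. HOXA6 had the highest, 10.3, and HOXA10 and EVX1 had none. HOXA10 thus counts as without a peak although the widest interval covers it, since the summit lies 5263 bp away.

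Other wide peaks were at FBXL18, an F-box gene, with 14225 bp and a fold of 16.7, and at TNRC18 with 13001 bp and 9.34. The peak at IGF2BP3, a fetal-type RNA-binding protein, had 9356 bp and 18.8. Its summit lay 4102 bp upstream of the gene, while its interval ran across the gene's start. The fifth, of 8191 bp and 17.7-fold, had its summit 3152 bp from CLDN4, a claudin of the gut. CLDN4 is therefore not counted as having a peak, although the interval is longer than that distance. The mature sequences of miR-196b and of the miR-106b-25 cluster, which lies in an intron of MCM7, are given from RefSeq on GRCh38.p14, with the seed, bases 2 to 8, in capitals.
hsa-miR-196b-5p: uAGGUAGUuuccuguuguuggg
hsa-miR-93-5p: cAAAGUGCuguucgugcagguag
hsa-miR-106b-5p: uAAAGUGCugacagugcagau
hsa-miR-25-3p: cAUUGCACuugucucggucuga
By seed, miR-93-5p and miR-106b-5p fall together with AAAGUGC, and miR-25-3p stands apart with AUUGCAC. A separate weak summit beside this cluster had a fold of 3.04 (1.86 to 4.71), while that of the MCM7 start had 18.3. Over the chromosome, 14 of 82 miRNA genes (17.1%) had a summit of any fold within 1 kb of an end, against 58.5% of the coding genes. MIR25, MIR93 and MIR106B each count there by the same weak summit.

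The share of genes with a peak was above the 56.4% background in several lists of general cell functions, which are described by their counts alone and were not tested. Among 23 genes listed for protein folding, secretion and degradation, all 23 had one (85.7 to 100%), with a median fold of 10.7 against 8.24 for all chromosome 7 genes with a peak. PDIA4, a disulfide isomerase of the endoplasmic reticulum, had 20.4, the chaperone partners DNAJB9 17.6 and DNAJC2 17.1, and the deubiquitinase USP42 17.5. The list also held ACTB, ARPC1A, ARPC1B and ERV3-1, which have other roles, and without them it was 19 of 19. Among genes of replication, repair and mitosis, 20 of 21 (95.2%) had a peak, with PMS2 at 33.1, POLD2 at 23.3, NT5C3A, in fact a pyrimidine nucleotidase, at 18.5 and MCM7 at 18.3. RPA3, of the single-strand binding complex, had none. Without NT5C3A and 4 more members of other roles the count was 15 of 16, and the median fold was 8.75 rather than 10.6.

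Among 29 genes of ribosome, tRNA and translation, 26 (89.7%; 73.6 to 96.4) had a peak, with a median fold of 10.6. EIF3B had 23.6, EIF2AK1, a kinase of the initiation factor eIF2, 20.4, MRPS33, of the mitochondrial ribosome, 16.9 and POP7 16.7. IGF2BP3, TYW1 and NUPR2 had none within 1 kb, of which NUPR2 is not a translation factor. The wide interval described above does run across the start of IGF2BP3. Mitochondrial and energy genes had a peak in 20 of 26 (76.9%; 57.9 to 89), led by ATP5MF, of ATP synthase, with 18.9, OGDH, of the citric acid cycle, with 18, CHCHD2 with 17.4 and PPIA, a cytosolic isomerase, with 16.2. AKR1B1, ASNS and NDUFA5 were among those with none at an outer end. ASNS, asparagine synthetase, nonetheless had a summit of 14.7-fold 145 bases before a listed start inside its annotated span, and NDUFA5 too had a summit within 1 kb of a listed start. With listed starts also counted, 22 of 26 had one. NDUFA4 is listed under its newer symbol COXFA4, which had a fold of 10.6 and was not counted. The 4 members of other roles left out, the count was 16 of 22.

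Transcription and chromatin regulators had a peak in 31 of 43 (72.1%; 57.3 to 83.2), at a median fold of 8.84. Without 3 members of other roles the count was 28 of 40 (70%), at a median fold of 8.7. EZH2, the H3K27 methyltransferase, had 17.4, GTF2I and BAZ1B 17.3 each and SP4 15.9, whereas CREB5, CUX1, EN2 and GLI3 had none at an outer end. CREB5 and CUX1 had a summit within 1 kb of a listed start, and with listed starts also counted 34 of 43 had one. KMT2E was counted without a peak too, although a 20.6-fold summit lay 1235 bp from its start. Genes of C2H2 zinc finger proteins, taken by their symbol prefix, had a peak in 22 of 35 (62.9%; 46.3 to 76.8). This interval holds the 56.4% over all coding genes. The highest folds were at ZNF786 with 14.3, ZNF12 with 13.9, ZNF277 with 13.5 and ZNF775 with 11.7. ZNF117, ZNF273, ZNF282 and ZNF467 had none.

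In 3 further lists the share was lower than 56.4%, but each interval held that value. Lipid and sterol genes had a peak in 13 of 26 (50%; 32.1 to 67.9). CROT, the peroxisomal carnitine octanoyltransferase, had 18.3, CYP51A1, of cholesterol synthesis, 14.8 and FAM3C 10.5. Lower values were found at INSIG1, which restrains sterol synthesis, with 7.22, and at HILPDA, a lipid droplet protein, with 4.89. ABCB1, ABCB4, AGMO and CD36, a fatty acid receptor, had none. Genes of gut epithelium, secretion and transport had a peak in 12 of 24 (50%; 31.4 to 68.6), with CLDN15 at 14, CLDN3 at 13.9, ATP6V0E2 at 12.6 and CLDN12 at 9.54, and none at AQP1, ATP6V0A4, CDHR3 and CLDN4. The 17.7-fold wide peak by CLDN4 was not counted, as its summit lay 3152 bp away. Growth factor receptors, kinases and GTPases had 16 of 36 (44.4%; 29.5 to 60.4), a count that rests on the window. With a window of 2 kb it was 25 of 36 (69.4%), against 64.6% of all chromosome 7 genes, since 9 members, among them EGFR, RAC1 and SMURF1, had their nearest summit between 1 and 2 kb from an end. Beside MET, CDK13 had 18, TBRG4 14.9 and RHEB 11.7. Some members, TBRG4 among them, have other roles, and no count without these was made for this list.

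CAV1, CDK14, CDK5 and EGFR of that list had none at an end, though CAV1 had a summit within 1 kb of a listed start. The EGFR gene nonetheless held 8 summits, with a highest fold of 15.6 (13.1 to 18.4) 55.3 kb inside and one of 7.95 at 1121 bp from its start. BRAF, a kinase downstream of RAS, had a fold of 6.07 by its start. Olfactory and taste receptor genes had a peak in 1 of 24 (4.17%; 0.739 to 20.2), OR9A4 with 3.18.

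**Figure D5:**
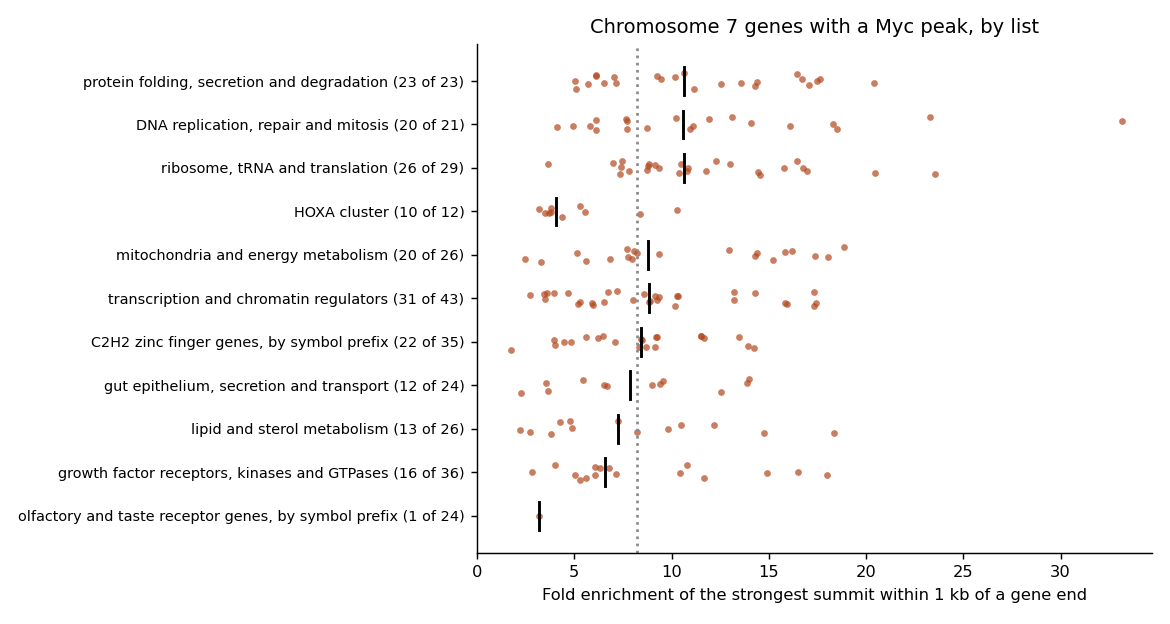
Fold enrichment of the strongest summit within 1 kb of a gene end (horizontal axis), with 1 point per gene that had a peak and the list's median as a black bar; the dotted line is the median of all chromosome 7 genes with a peak, 8.24. Labels give the number with a peak of the number listed, from 23 of 23 for protein folding, secretion and degradation at the top to 1 of 24 for olfactory and taste receptors at the bottom.

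The longest stretches without a summit lay where coding genes were few or repeated. Across the centromere, no peak was called between chr7:58246401 and ZNF680 for 6317 kb, a stretch with 17 coding genes, which are zinc finger genes and unnamed loci. The summit at its short-arm border is itself doubtful, with 244 Myc fragments, a control level of 195 and a fold of 1.25. On the long arm, a gap of 2744 kb with no coding gene wholly inside it ran across the start of CNTNAP2, a neuronal adhesion gene, into its body. On the short arm, a gap of 2678 kb ran from ICA1, with a fold of 14.6 at its start, to COXFA4 with 10.6, and had the neuronal gene NXPH1 within it.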

How the data were processed

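Myc CUT&RUN peaks of 1 deposited list were used, read as 1 list over the 3 Myc libraries. The submitters' processing notes name hg38, MACS2 2.1.2 and BWA 0.7.15, besides SAMtools 1.5 and Picard 2.19.0. Which control was used and how replicates were joined is not given in the sources used here. Listed values are the authors' fold (a ratio), −log10 p, −log10 q and a score, and the fold serves only to describe and rank. Whole-number pileups were solved from the deposited fold and −log10 p within 0.001 for all 47016 nuclear peaks, after a check on simulated data. The fold was taken as the pileup plus 1 over the control level plus 1. The smallest pileup was 14. Depth per library is not in this list. Genes, starts and sequences came from RefSeq tables of GRCh38.p14, whose chromosome sequences are those of hg38. A gene had a peak where a summit lay within 1 kb of either end. Intervals are exact Poisson or Wilson at 95%, with Python 3.11.15 and scipy 1.17.1. Fragments carry no molecular identifiers. Members and lists were chosen with earlier results of these data known. Named genes are the leading ones of the densest 5 bins, the 15 strongest and 5 widest peaks, gap borders, lncRNA ends and up to 4 per list with and without a peak; others, such as the gene bodies, were chosen after their values were seen. A few genes that this rule names are not reported here. Alternatives covered the q threshold, wide peaks, the window, the arm split and the bins.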

Additional observations from a re-analysis of the deposited data

How the results depend on the processing

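No alternative removed the long arm's slightly higher density or share at gene ends, and the arms' order of fold and width was also kept where recomputed. With only peaks of −log10 q of at least 5, density was 11.7 per Mb on chromosome 7, 11.8 on the long arm and 11.4 on the short arm, the shares at gene ends 27.4%, 28.9% and 24.9%, the median fold 5.06 on the long and 5.11 on the short arm, and the median width 929 bp and 982 bp. Without peaks over 2 kb wide, density was 15.9, 16.4 and 15.3 per Mb, the shares 16.6%, 17.8% and 14.4%, the median fold 3.69 on the long and 3.79 on the short arm, and the width 576 bp and 633 bp. The shares were 16.6%, 17.6% and 14.9% with a window of 500 bp, 26.1%, 27% and 24.3% with one of 2 kb, and 17.3%, 18.5% and 15.2% within 1 kb of a listed start, an alternative chosen after seeing the data. With 55 to 65 Mb left out, the long arm had 18.9 peaks per Mb. Each interval had 1 summit, so keeping the highest changed no value. Over the gene lists, counts with a window of 2 kb or with listed starts added, chosen after seeing the data, stayed within 1.5 times the count at 1 kb except for the 25 against 16 of the growth factor receptor list at 2 kb. Genes with a peak ranged from 394 to 606, the densest bin from 55 to 94 peaks and empty bins from 18 to 25. No paired analysis was possible because the list holds no value per library; for the same reason no library could be left out. The number of fragments at the weakest summits, a median of 18, limits what can be said of single weak peaks.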
